A study of Drosophila melanogaster with 2 samples.

Results

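Chromatin from whole Drosophila melanogaster embryos gave 476 strong regions in replicate 2 with no counterpart among the strong regions of replicate 3. They were taken from the 2000 strongest nuclear regions of the replicate 2 list by the deposited signal value, and kept where not 1 bp was shared with any of the 4000 strongest nuclear regions of replicate 3. They made up 23.8% of the 2000. The regions were thus chosen by the measured signal of both replicates. The interval given after a share is the 95% Wilson interval and reflects counting error alone. The other 1524 regions are called shared, and the 476 are called unmatched. The replicate 2 list held 29984 regions on the 6 chromosome arms used, and the replicate 3 list 29996.

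Both replicates were chromatin immunoprecipitation sequencing (ChIP-seq) libraries from mixed-sex embryos of the Hmx-MiMIC-GFP strain, aged 0 to 24 h, in which an eGFP exon within an intron of Hmx makes the gene's own product a fusion protein. They formed 1 group, with no second genotype, treatment or stage, and the labels number them as biological replicates 2 and 3. An anti-GFP antibody was used according to the sample description, while the antibody field names Hmx. Whole embryos over a day of development mix all tissues and stages, so a region carries no cell type, and untagged embryos were not analysed here. Hmx encodes a homeodomain transcription factor of the NK-like group, related to the vertebrate HMX proteins, and is known from the embryonic nervous system. In ChIP-seq, DNA held by a tagged protein is enriched and read, and positions of piled-up reads are listed as regions, each with a summit. The replicate lists were deposited as peaks and background together, made as input for the irreproducible discovery rate (IDR) procedure. That procedure keeps regions that rank consistently high in the lists it compares.

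The DNA at the strongest unmatched region of each main place class is shown because base composition and position are the measures that the choice of regions did not use. At chr3R:23758041-23758191 (dm6, plus strand) lies the strongest of the 476, near starts of Hrd3 and PTPMT1. Hrd3 is a component of the ubiquitin ligase of endoplasmic reticulum quality control, and PTPMT1 is a mitochondrial phosphatase gene. At chr3L:14005008-14005158 lies the strongest in an intron, in upSET, which encodes a SET-domain chromatin protein. At chr3R:16221788-16221938 lies the strongest between genes, 1532 bp upstream of lncRNA:CR45643. At chr3L:4824941-4825091 lies an intronic region of Dhc64C, the heavy chain of cytoplasmic dynein, picked after its values were seen as the strongest one, on the arms from which sequence is shown, that was missing from the pooled list of both replicates as well. Each stretch covers 75 bases either side of the replicate 2 summit and touches no annotated exon. The bases come from the RefSeq copy of the dm6 assembly, and capitals mark the word TAATTA, the related word TAATTG or the E-box word CATATG on either strand.
Hrd3 and PTPMT1: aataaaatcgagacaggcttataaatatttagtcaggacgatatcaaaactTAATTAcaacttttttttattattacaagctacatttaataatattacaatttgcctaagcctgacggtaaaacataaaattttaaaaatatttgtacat
upSET: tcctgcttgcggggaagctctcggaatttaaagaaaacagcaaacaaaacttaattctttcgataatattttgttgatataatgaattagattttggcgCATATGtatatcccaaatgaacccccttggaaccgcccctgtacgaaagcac
lncRNA:CR45643: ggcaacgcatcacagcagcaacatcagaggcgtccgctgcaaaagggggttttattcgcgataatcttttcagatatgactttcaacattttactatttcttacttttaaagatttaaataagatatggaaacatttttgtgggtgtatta
Dhc64C: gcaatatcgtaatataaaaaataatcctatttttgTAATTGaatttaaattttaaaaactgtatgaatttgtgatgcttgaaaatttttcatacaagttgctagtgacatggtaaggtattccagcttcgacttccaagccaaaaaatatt

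The G+C content was 23.2% at Hrd3, 39.1% at upSET, 35.8% near lncRNA:CR45643 and 26.5% at Dhc64C. All windows of 101 bp on the arms had a mean of 42.2%, and those centred 135 bp upstream of protein-coding starts 37.6%. The stretches at Hrd3 and Dhc64C are thus rich in A and T, whereas those at upSET and lncRNA:CR45643 lie near these means. Marked homeodomain core words appear at Hrd3 (TAATTA) and Dhc64C (TAATTG), an E-box (CATATG) appears at upSET, and no marked word appears in the intergenic stretch.

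By overlap with the whole replicate 3 list, the description "found in replicate 2 only" holds for part of the set. No region anywhere in the replicate 3 list overlapped 190 of the 476, and these are called unlisted. The remaining 286 did overlap a replicate 3 region, at ranks from 4010 to 29559 with a median of 7434, and are called weakly listed. The lists hold background as well as peaks, so an overlap with a weak replicate 3 region need not be a peak there. The deposited −log10 q value, higher for surer regions, was 0.690 at rank 4000 of replicate 3. At rank 2000 of replicate 2 it was 2.14. The division into unlisted and weakly listed regions was made after the values were seen. In the 286, the replicate 2 signal had a median of 44.6 and the overlapping replicate 3 region a median of 23.7 (range 13.8 to 28.6), each on the caller's own scale within its list. In the 1524 shared regions the medians were 61.1 and 53.5. These signals chose the groups and are given as a description, with no test.

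**Figure D1:**
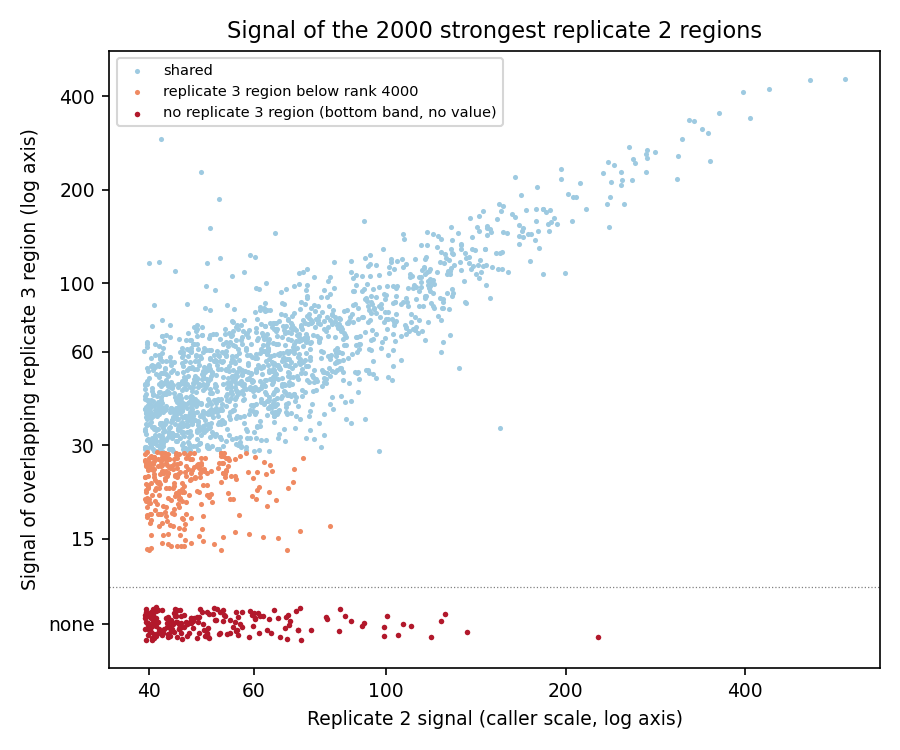
Signal of each of the 2000 strongest replicate 2 regions (x axis, caller's scale, log axis) against that of the overlapping replicate 3 region (y axis, log axis), 1 point per region. The 190 unlisted regions have no replicate 3 value and are spread at random within the bottom band, where they reach a replicate 2 signal of 226.8, whereas the weakly listed ones end at 80.7.

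Unmatched regions lay mostly in the lower ranks. Their signal ran from 39.4 to 226.8 with a median of 45.1. There were 21 in ranks 1 to 500 of replicate 2, 71 in ranks 501 to 1000, 149 in ranks 1001 to 1500 and 235 in ranks 1501 to 2000. The make-up of the set changed along the ranks, since 20 of the 21 in the first bin were unlisted, against 38 of 71, 53 of 149 and 79 of 235 in the next bins. The same rule turned around, with the 2000 strongest of replicate 3 against the 4000 strongest of replicate 2, left 439 regions (21.9%), with 5, 53, 148 and 233 in the same bins. Of these, 73 were unlisted in replicate 2, and 2 of those stood in ranks 1 to 500.

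**Figure D2:**
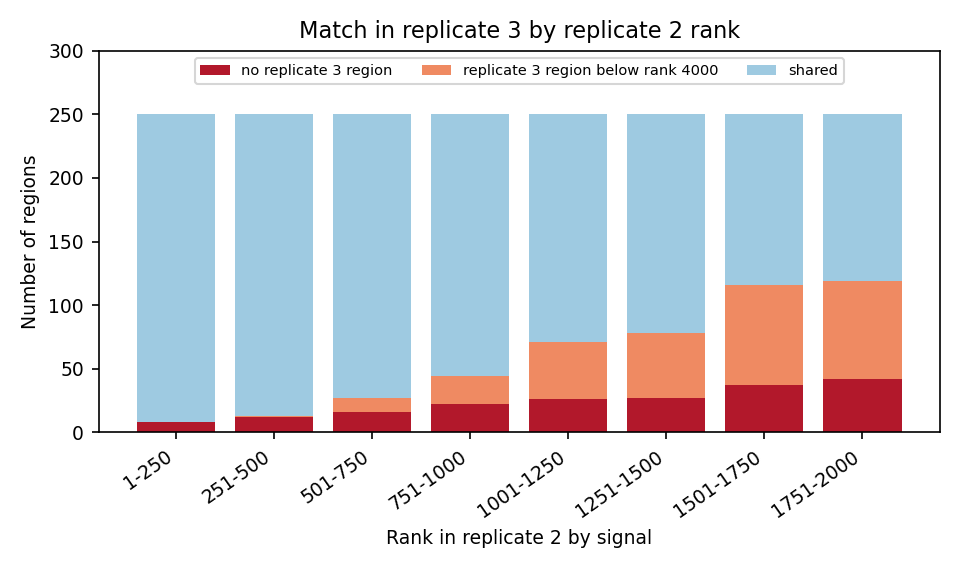
Number of replicate 2 regions (y axis) in successive bins of 250 ranks (x axis), split into unlisted, weakly listed and shared. Unmatched regions numbered 8 in the first bin and 119 in the last, and the weakly listed ones are the larger part of the unmatched regions from rank 1001 on.

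At the cut-offs the values ran on without a gap. In replicate 2, rank 2000 had a signal of 39.35 and rank 2001 a signal of 39.33. The last unmatched regions inside lay at Mpv17 (rank 1999, 39.37) and Moe, the moesin gene (rank 1995, 39.43), and Best1 (rank 2001) and CG33453 (rank 2002, 39.33) had no strong match but stood just outside. In replicate 3, rank 4000 had a signal of 28.65 and rank 4001 a signal of 28.64. The region at Glyat counted as unmatched with a replicate 3 rank of 4010 and a signal of 28.62, as did that at spen (rank 4075, 28.49), and those at Orp8 (rank 3991, 28.68) and Argk1 (rank 3988, 28.69) counted as shared.

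Most of the strongest unmatched regions stood at promoters. Of the 20 strongest, 18 had a summit within 500 bp of an annotated transcription start, called a promoter here, and at 12 of them starts on both strands lay within that distance. All but 1 of the 20 were unlisted. The exception lay at BI-1, the Bax inhibitor gene, whose replicate 2 signal of 80.7 faced a replicate 3 region of rank 20551 with a signal of 16.5. Such an intermediate case was single among these regions, and the others were strong in replicate 2 with no listed value in replicate 3.

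Hrd3 had the highest signal of the set, 226.8 at rank 35, from a region of 144 bp (chr3R:23757993-23758136). Its pooled signal was 404.9. It is also the 1 unlisted region with a replicate 3 summit within 250 bp, at a distance of 87 bp, in a neighbouring region that does not touch it. The trimmed replicate 2 region and its replicate 3 neighbour thus count as unmatched by the overlap rule although their summits are close. For the other 189 unlisted regions the nearest replicate 3 summit was farther than 250 bp, 31 of the 190 had one within 1000 bp, and the median distance over the 190 was 3655 bp.

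Several of the next regions entered the list made from both replicates pooled, at a signal well above that of replicate 2. At Gmd, an enzyme gene of GDP-fucose synthesis, with CG3792, the replicate 2 signal was 125.4 and the pooled signal 266.6. In the upSET intron these were 123.9 and 218.3, and at CG10628 with Dus3, a tRNA dihydrouridine synthase gene, 118.8 and 218.8. The promoter region at Arl1, a small GTPase gene of the Golgi, and brm, the ATPase of the Brahma chromatin remodelling complex, had 104.8 and 185.8. None of these 4 overlapped a replicate 3 region. The same held at MFS18 (99.3 and 170.4), Alg3, a mannosyltransferase gene of N-glycan synthesis (99.1 and 180.8), rdog (87.4 and 176.3) and GCC185, a golgin gene, with KLHL18 (83.5 and 154.8).

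Other regions of like strength were in neither the replicate 3 nor the pooled list. CG5098 with CG5757 had a replicate 2 signal of 136.9 at rank 117 (chr2R:18095149-18095350). The Dhc64C intron had 110.2 and eEF1gamma, a translation elongation factor gene, 106.9. The promoter region at Tcs5 and CHMP2B, the latter a gene of membrane scission by the ESCRT-III complex, had 100.4. CG12241 with SIDL had 91.7, Atg2, an autophagy gene, with CG12093 had 91.1, CG3165 with CG9641 had 85.5, and sturkopf with Herc4, a ubiquitin ligase gene, had 83.6. CG1827 had 79.8, and Rpn3, a proteasome gene, with l(2)37Bb had 79.2. The weakest of the pooled regions had a signal of 22.4, so these 10 positions were missing from a list that reaches below every one of their replicate 2 signals, although the scales of the 2 lists need not be equal. For scale, the 3 strongest shared regions had replicate 2 signals of 587.8 at CG14100, 513.6 near cbt and 439.1 near CG11050, with replicate 3 signals of 455.0, 452.0 and 423.3.

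Absence from the pooled list went with absence from replicate 3. Of the 190 unlisted regions 78 (41.1%, interval 34.3 to 48.2%) overlapped no pooled region, against 6 of 286 weakly listed (2.10%, 0.965 to 4.50%) and 12 of 1524 shared regions (0.787%, 0.451 to 1.37%). In the reversed rule, 14 of the 73 replicate 3 regions unlisted in replicate 2 were missing from the pooled list. The pooled list contains the reads of both replicates per its label and is no independent readout. The cause of these absences was not tested, and no read counts were used.

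Where a pooled region existed, its signal divided by the replicate 2 signal had a median of 1.37 in unlisted regions (n = 112, range 0.508 to 2.47), 1.47 in weakly listed (n = 280) and 1.88 in shared regions (n = 1512). In ranks 1 to 500 the unlisted regions had a median ratio of 1.80 (n = 10, 1.54 to 2.13) and the shared regions 1.86 (n = 475). The strongest unlisted regions with a pooled entry therefore had ratios in the range of shared regions, while in ranks 1501 to 2000 the medians were 1.27 (n = 58) and 1.94 (n = 263). The lowest ratios came at Ide with RhoBTB (0.491) and at Nup98-96 with mbc (0.508), where the overlapping pooled region was weaker than the replicate 2 one. Of the 1595 nuclear regions that passed the IDR procedure, 42 overlapped no replicate 3 region and 4 no replicate 2 region. Of the unmatched regions 83 (17.4%) overlapped an IDR region, 42 of them unlisted and 41 weakly listed, against 1388 of the 1524 shared regions (91.1%).

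**Figure D3:**
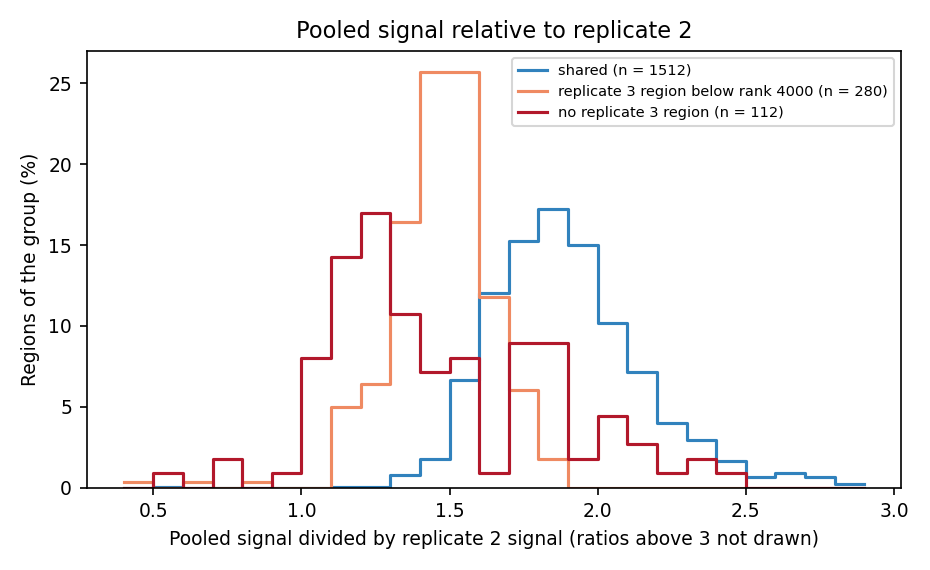
Share of regions of each group (y axis, percent) by the ratio of pooled to replicate 2 signal (x axis, bins of 0.1). Shared regions centre on 1.88 and weakly listed on 1.47, whereas unlisted regions spread from 0.508 to 2.47.

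Place in the genome was not used by the rule. A promoter summit was found in 296 of 476 unmatched regions (62.2%, interval 57.7 to 66.4%) and 931 of 1524 shared regions (61.1%, 58.6 to 63.5%), which overlap within counting error. The parts of the set stood apart from this total. Unlisted regions had 143 promoter summits of 190 (75.3%, 68.7 to 80.9%) and weakly listed 153 of 286 (53.5%, 47.7 to 59.2%). The intervals of these 2 groups do not overlap, and no test across samples can be made from 1 list per replicate. Among the 78 unlisted regions missing from the pooled list the count was 71 (91.0%, 82.6 to 95.6%), and among the 112 present there it was 72 (64.3%, 55.1 to 72.6%). The reversed set from replicate 3 had 144 promoter summits of 439 (32.8%, 28.6 to 37.3%).

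Promoter shares also vary with signal, so they were set side by side within ranks. In ranks 501 to 1000 the unlisted regions had 86.8% (33 of 38, interval 72.7 to 94.2%) against 62.0% of shared regions (57.3 to 66.5%). In ranks 1001 to 1500 the values were 79.2% (42 of 53, 66.5 to 88.0%) and 53.0% (47.8 to 58.2%). In ranks 1501 to 2000 they were 63.3% (50 of 79, 52.3 to 73.1%) and 55.1% (49.1 to 61.0%), where the intervals overlap. Ranks 1 to 500 held 18 promoter summits among 20 unlisted regions, with an interval of 69.9 to 97.2%, and 69.5% among shared regions, with an interval of 65.3 to 73.5%. Weakly listed regions had 60.6%, 57.3% and 49.4% in the 3 lower bins, each within the interval of shared regions.

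**Figure D4:**
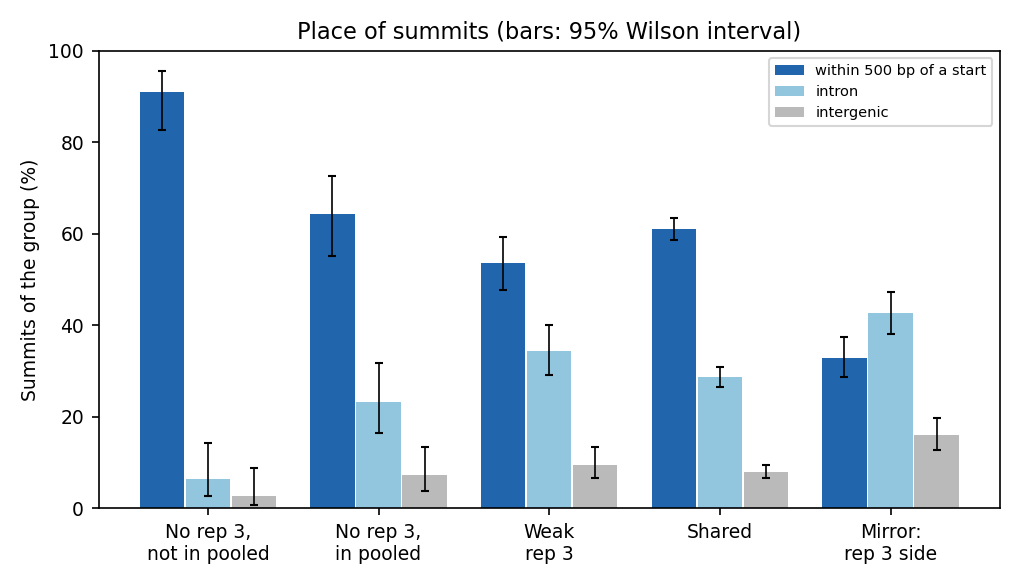
Share of summits (y axis, percent) within 500 bp of a start, in introns and between genes for 5 groups (x axis), with 95% Wilson intervals as bars. Unlisted regions missing from the pooled list reach 91.0% at promoters and the reversed set from replicate 3 has 32.8%.

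Promoter summits with starts on both strands nearby were common in the unlisted regions. The orientation of these starts to each other was not examined. Starts on both strands lay within 500 bp at 90 of their 143 promoter summits (62.9%, interval 54.8 to 70.4%), at 56 of 153 in weakly listed (36.6%, 29.4 to 44.5%) and at 369 of 931 in shared regions (39.6%, 36.5 to 42.8%). By rank the unlisted regions had 26 of 33 in ranks 501 to 1000, 31 of 42 in ranks 1001 to 1500 and 20 of 50 in ranks 1501 to 2000. The weakest bin was thus near the 39.6% of shared regions over all ranks. In ranks 1 to 500 the unmatched regions had 13 of 19. All replicate 2 regions of ranks 2001 to 4000 had 30.1% (261 of 868), so this share also varies with signal. At promoters of protein-coding genes, taking each summit's nearest start, it lay upstream of it in 235 of 280 unmatched (83.9%) and 755 of 868 shared promoters (87.0%), at a median of 109.5 and 135 bp upstream.

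Away from promoters, 129 unmatched summits lay in introns (27.1%) and 37 between genes (7.77%), against 28.6% and 7.94% of shared summits. Introns took 31 of the 190 unlisted summits (16.3%, interval 11.7 to 22.2%) and 98 of the 286 weakly listed (34.3%, 29.0 to 39.9%). The strongest summits between genes lay near lncRNA:CR45643 (replicate 2 signal 71.1, pooled 83.9) and upstream of Ddc, the dopa decarboxylase gene, which was in neither of the other lists. Those near for, a cGMP-dependent kinase gene, and lncRNA:CR43650 were weakly listed, and the one near bor was unlisted. A single unmatched summit, in Cyp28d2, a cytochrome P450 gene, fell in coding sequence, and it was unlisted with a pooled signal of 55.9. Annotated transposable elements were touched by 5 of the 476 regions, all of them unlisted, and by 10 of the 1524 shared regions.

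The unmatched regions were spread over all arms. Per Mb there were 3.79 on 2L, 3.76 on 2R, 3.29 on 3L, 4.02 on 3R, 5.26 on chromosome 4 (7 regions) and 2.73 on X. Shared regions had 11.8, 11.4, 11.5, 11.2, 6.76 (9 regions) and 11.5 in the same order. The X held 13.4% of unmatched regions (64, interval 10.7 to 16.8%) and 17.7% of shared regions (270, 15.9 to 19.7%). The X share was low in the reversed set from replicate 3 as well, at 39 of 439 regions (8.88%, 6.57 to 11.9%). Replicate 3 regions with a match had 18.8% (16.9 to 20.8%). At promoters the X held 10.8% of unmatched (7.76 to 14.9%) and 14.0% of shared summits (11.9 to 16.3%). Away from promoters it held 17.8% (12.9 to 24.0%) and 23.6% (20.4 to 27.2%), and within each place class the intervals overlap. Within ranks the unmatched and shared shares of replicate 2 lay apart among the stronger regions. In ranks 1 to 500 the X held 0 of 21 unmatched regions (0 to 15.5%) and 97 of 479 shared ones (20.3%, 16.9 to 24.1%), and in ranks 501 to 1000 it held 2 of 71 (2.82%, 0.776 to 9.70%) and 75 of 429 (17.5%, 14.2 to 21.4%). These intervals do not overlap. In ranks 1001 to 1500 the shares were 14.8% (22 of 149, 9.96 to 21.3%) and 16.8% (13.3 to 21.1%), and in ranks 1501 to 2000 they were 17.0% (40 of 235, 12.8 to 22.3%) and 14.7% (10.96 to 19.5%), with overlapping intervals. Of the unmatched regions 14 overlapped another unmatched one, so their summits are not separate sites. Shared regions overlapped each other as well, for example at Orp8, and those overlaps were not counted. The median distance from an unmatched summit to the nearest shared one was 13929 bp.

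The base composition at the summits was nearly the same in all groups. The G+C content over 50 bp either side was 31.4% ± 8.01 (SD over 476 regions) in unmatched and 31.5% ± 7.50 (n = 1524) in shared regions, with 31.6% in unlisted and 31.2% in weakly listed, against 42.2% for all windows of that width on the arms. Windows 300 bp to either side had 43.4% ± 7.16 and 43.8% ± 6.87. Farther out the groups parted. At 500 bp to the left, 21-bp windows had a mean G+C of 48.8% around unlisted, 44.1% around weakly listed and 44.6% around shared summits, and at 500 bp to the right 46.9%, 43.8% and 44.3%. The groups also differ in promoter share, and the part of place in this difference was not tested.

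**Figure D5:**
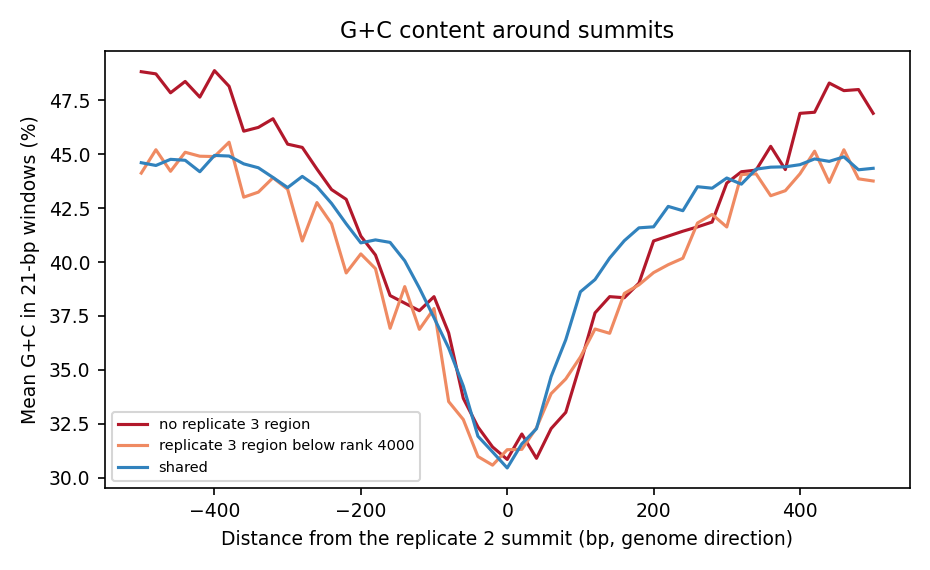
Mean G+C content in 21-bp windows (y axis, percent, not starting at 0) by distance from the replicate 2 summit (x axis, bp), for unlisted, weakly listed and shared regions. All 3 fall to about the same level at the summit, and unlisted regions stand highest at 500 bp on both sides.

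Short DNA words were counted on both strands in the 101 bases at each summit. The homeodomain core TAATTA, bound by many homeodomain proteins, was in 12.8% of unmatched windows (interval 10.1 to 16.1%), 11.7% of shared windows, 4.20% of windows 300 bp from the unmatched summits and 6.47% of all windows on the arms. TAATTG was in 13.0%, 11.9%, 8.40% and 9.27%. In windows centred 135 bp upstream of protein-coding starts the shares were 8.96% for TAATTA and 10.9% for TAATTG. The latter lies within the TAATTG intervals of unmatched (10.3 to 16.3%) and shared windows (10.3 to 13.6%). The part of base composition in these shares was not tested. CAAGTG, a core described for vertebrate HMX proteins, was in 4.20% of both unmatched and shared windows. It was in 6.37% of all windows and 5.61% of the windows upstream of starts. These last shares both lie within the CAAGTG interval of unmatched windows, so a lower share there is not shown beyond counting error. They lie above the interval of shared windows (3.30 to 5.33%). The other NK-type word, TAAGTG, was in 3.78% of unmatched (interval 2.41 to 5.90%) and 5.84% of shared windows (4.77 to 7.13%), on either side of the 4.88% of all windows. The A and T word TTAAAA was in 39.7% and 38.5%, against 26.9% of the windows upstream of starts and 16.3% of all windows. This goes with the low G+C content of summits. For each of these 5 words the intervals of unmatched and shared regions overlap.

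The promoter element TATCGATA, the site of the factor DREF, which is known at genes for growth and replication, was in 13 unmatched windows (2.73%, interval 1.60 to 4.62%) and 16 shared windows (1.05%, 0.647 to 1.70%), intervals that just overlap. Of the 13, 8 were among the unlisted regions (4.21%, 2.15 to 8.09%). The share was 1.11% in windows centred 135 bp upstream of protein-coding starts and 0.275% of all windows on the arms. All of these matches in unmatched and shared regions lay within 500 bp of a start. CATATG was in 3.99% of unmatched, 4.40% of shared and 2.75% of all windows. GAGAGA, the word bound by GAGA factor, was in 2.10% of unmatched and 3.35% of shared windows against 3.55% of all windows. TGACTC, part of the AP-1 site, was in 0.840% (interval 0.327 to 2.14%) and 2.36% (1.71 to 3.25%) against 2.73%, and CACACA in 6.72% (4.80 to 9.34%) and 4.33% (3.42 to 5.47%) against 8.07%. AAAAAA was in 35.1% and 31.0% against 17.996%. In the windows upstream of starts the shares were 3.04% for CATATG, 6.47% for GAGAGA, 2.33% for TGACTC, 8.13% for CACACA and 23.3% for AAAAAA. The remaining 3 words, CAGCTG of the E-box kind, GGGCGG and the Zelda word CAGGTA, were each less common at unmatched and shared summits than in all windows, at 2.31% and 2.69%, 0.630% and 0.787%, and 1.68% and 1.71%, against 4.24%, 3.52% and 2.30%.

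The unmatched summits fell in the body or the 1 kb upstream of 616 of 13945 protein-coding genes (4.42%), and 116 of these also had a shared summit. Shared summits touched 1604 (11.5%) and the reversed set from replicate 3 touched 405 (2.9%). List counts below are read against these shares, without a test, and longer genes have more room for a summit.

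Genes of the translation machinery were often touched. Of 92 cytoplasmic ribosomal protein genes, matched by symbol, 13 (14.1%) had an unmatched summit and 19 (20.7%) a shared one. RpL27A had a replicate 2 signal of 69.0, no replicate 3 region and a pooled signal of 102.0, from a region it shares with the mitochondrial ribosomal gene mRpL27. RpL37A had 61.3 against a replicate 3 signal of 22.1, RpL19 had 59.0 with none, and RpL8 had 58.7 against 24.6. None of the 13 had a shared summit in addition, and 7 were unlisted. Translation factors had 7 of 54 (13.0%) against 6 (11.1%) with a shared summit. They were led by eEF1gamma (106.9) and by eIF3h, a subunit of initiation factor eIF3 (74.96, pooled 115.5), both unlisted. The release factor gene eRF1 (59.8 against 23.5) and the scaffold gene eIF4G1 (46.3 against 25.7) were weakly listed. The 5 of 73 mitochondrial ribosomal genes (6.85%) had 12 with shared summits beside them, and mRpS26 (55.3 against 20.2), mRpL10 (52.9 against 28.4) and mRpL37 (41.5 against 27.1) followed mRpL27.

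Proteasome genes had 5 of 48 (10.4%) with an unmatched and 2 (4.17%) with a shared summit. Rpn3 (79.2) was unlisted. Rpn13, a ubiquitin receptor (70.2 against a replicate 3 signal of 25.3), Rpn11, the deubiquitinase of the lid (64.5 against 24.9), and Prosbeta7, a core subunit (42.1 against 16.8), were weakly listed. With counts this small, the 2 shares differ by 3 genes.

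Among regulators the counts were small. In the Polycomb and trithorax groups 3 of 21 genes (14.3%) had an unmatched summit and 5 (23.8%) a shared one. The 3 were brm, Psc and osa. Psc, a subunit of Polycomb repressive complex 1, had 63.2 and was in neither other list. The Brahma complex subunit gene osa had 46.6 against a replicate 3 signal of 28.0. Genes of the ecdysone response, the steroid pathway of moulting, had 5 of 13 (38.5%) against 6 (46.2%) with shared summits. The nuclear receptor genes Eip75B (44.7) and Hr4 (43.1) were unlisted, and EcR, the ecdysone receptor (44.6 against 25.3), and usp, its partner (40.9 against 23.7), were weakly listed. EGFR and Ras genes had 3 of 15, all weakly listed, beside 8 with shared summits. The 3 were aop, a repressor of the pathway (47.7 against 25.6), Raf, its kinase (41.0 against 19.9), and sty. The sprouty gene sty, an inhibitor of the pathway, had the most unmatched summits, 3 in a locus of 23.8 kb, with replicate 2 signals of 49.2, 45.8 and 42.8, and the regions of the first pair overlap. The genes eIF3h and senju, side by side, and Ide and RhoBTB, likewise, each had 2 summits in overlapping regions.

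In axon guidance, 4 of 20 genes were touched, dlp (52.9 against 28.3), PlexB (48.5), Lar (44.3) and trio (41.6 against 22.9), beside 5 with shared summits and 7 with summits of the reversed set. Insulator genes had 3 of 14, beside 8 with shared summits. Of the 3, Ibf1 and Ibf2 share 1 region (42.2 against 19.1) and pzg had 41.6 against 21.9. Hedgehog genes had 2 of 11, ci, the transcription factor (47.1 against 24.5), and ptc, the receptor (41.1 against 21.8), and 0 with shared summits. In the BMP list Dad, an inhibitory Smad gene (44.3), was unlisted and shn (39.5 against 26.7) weakly listed. Shared summits lay in 5 of the 13 BMP genes. Single genes stood in further lists, namely mam of the Notch pathway, sgg of the Wnt pathway, mbc, scrib, pum, Hsp60A, Cam and His3.3B.

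No unmatched summit lay in 12 NK-class homeobox, 8 Hox, 40 other homeobox, 18 proneural and neuroblast, 20 neuronal differentiation or 12 glial genes. Shared summits lay in 1, 1, 2, 3, 3 and 3 of these, and summits of the reversed set in 1, 1, 2, 2, 1 and 1. Each of these lists is too short for a count of 0 to stand apart from the 4.42% of all protein-coding genes. There were also 0 in 179 chemoreceptor, 115 cuticle, 10 chorion and 11 E(spl) complex genes. Here shared summits lay in 0, 0, 1 and 1 genes, and summits of the reversed set in 0, 1, 0 and 1. At the Hmx locus itself, with 5000 bp to either side, there was no unmatched region, and the strongest region there had rank 14024 in replicate 2 (signal 17.5) and rank 4367 in replicate 3 (signal 27.9).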

How the data were processed

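Region lists of 2 ChIP-seq libraries (1 per replicate), 1 list of both pooled and the list passing IDR were used, on dm6. The dm3 replicate lists served only to repeat the counts. The authors deposited a signal value per region on the caller's own scale and a −log10 q value. Not given in the sources used here were the caller, the aligner and the threshold of the IDR procedure. No read counts were used, so depth is unknown. The −log10 q values could not rank regions, since 1997 of the replicate 2 nuclear regions share the highest.

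Regions were sorted by signal, and overlap of 1 bp or more was computed in Python 3.11.15 and checked with bedtools 2.31.1, which gave 476 too. Mitochondrial regions and unplaced sequence were left out. Genes and starts came from Ensembl release 115 (BDGP6.54, transposable elements excluded), sequence from RefSeq's copy of the assembly. The overlap code was tested on simulated data. Shares have 95% Wilson intervals. With 1 library per replicate no test over samples was possible.

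The regions, 29 gene lists and 14 DNA words were chosen with earlier results of these data known. Genes named are the 20 strongest, the 10 strongest unlisted, those with most summits, up to 4 per gene list, the strongest intergenic and coding ones and those at the cut-offs. Further genes, and the regions missing from the pooled list, were picked after their values were seen. The symbol calypso was not matched.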

Additional observations from a re-analysis of the deposited data

How the results depend on the processing

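The number of unmatched regions moved with how many regions were compared. It was 92 for the 1000 strongest nuclear regions of replicate 2, 1806 for the 4000 strongest, and 190 against all nuclear replicate 3 regions. Against the 2000 or 8000 strongest of replicate 3 it was 690 or 323, with 500 when the match had to cover 50% of the region, 486 for summits within 250 bp and 480 on the dm3 lists. The promoter share of unmatched regions was 51.1% at 250 bp and 72.9% at 1000 bp, 78.3% for the 1000 strongest of replicate 2 and 75.3% against all of replicate 3. That of shared regions was 44.9% and 73.0% at the same distances, 58.1% with protein-coding starts only and 66.0% for the 1000 strongest. Summit G+C of unmatched regions was 32.9% over 100 bp either side, 36.0% over whole regions and 30.5% for the 1000 strongest, and that of shared regions 31.0% over 25 bp, 33.7% over 100 bp and 37.0% over whole regions. The number of protein-coding genes with an unmatched summit was 416 by the gene with the nearest start, against the 616 reported. The gene list counts use the wider rule of gene body or 1 kb upstream. The cause of these shifts was not tested. In settings added after seeing the data, the promoter share of unlisted regions was 67.4% at 250 bp and 84.7% at 1000 bp, and 163 regions with a share of 80.4% had no replicate 3 region within 500 bp. In all, 29 recomputed values stayed within the interval or within 1.5 times the reported count and 19 moved. Ranking by q value was not run because of ties. No paired analysis was possible because 1 group of 2 replicates gives no groups to pair, and leaving out a replicate leaves no comparison. Depth is unknown.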
